A study of Rattus norvegicus with 4 samples.

Results

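miR-99/100 and miR-125 are a pair of microRNA (miRNA) families whose genes lie side by side in the genome. Here their levels were compared between rat growth plate chondrocytes and the matrix vesicles (MVs) that these cells deposit. The members were taken by name as the 5p arms rno-miR-99a-5p, rno-miR-99b-5p and rno-miR-100-5p (the miR-99/100 family) and rno-miR-125a-5p and rno-miR-125b-5p (the miR-125 family), written below without the species prefix, which are 5 of the 740 miRNA names in the count table. The chondrocytes came from costochondral cartilage of male Sprague Dawley rats, from the resting zone (RC) and from the growth zone (GC), and were grown to confluence at passage 4 with ascorbic acid and fetal bovine serum. Bovine exosomes had been depleted from this serum before use. MVs are small, membrane-bound particles that chondrocytes anchor in the extracellular matrix, where they can serve as sites of early mineral formation. Per the study, this holds for MVs of the growth zone, while those of the resting zone usually do not calcify. To collect them, trypsin was used to release the cell layer, and the particles were spun down in steps of rising force. Small RNA was sequenced from 1 library of each kind, the cells (RC-cells and GC-cells) and their vesicles (RC-MVs and GC-MVs), and how many cultures or animals stand behind a library is not given in the sources used here.

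A miRNA is cut from a hairpin precursor, and either arm of the hairpin, named 5p or 3p, can become the mature strand. It pairs with messenger RNAs mainly through its seed, which is bases 2 to 8 from its 5′ end, and represses them. miR-125 is the vertebrate form of lin-4, a regulator of developmental timing in worms, and miR-100, let-7 and miR-125 are made from 1 shared transcript in flies. In mammals miR-99/100 is known to act on mTOR and on the IGF-1 receptor, which are growth regulators, and miR-125b has been described in chondrocytes as a repressor of an aggrecanase, an enzyme that breaks down cartilage proteoglycan. The let-7 family promotes differentiation.

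The mature sequences below are shown because they set the families apart and because the members of a family are so alike that reads can be assigned to the wrong one. They were read from RefSeq on the build GRCr8, while the counts were made on Rnor_6.0, and 4 of the 5 members were matched in that table (660 of the 740 names were). Capitals mark the seed. miR-99a-5p is named here without a sequence.

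miR-99b-5p: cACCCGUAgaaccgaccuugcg
miR-100-5p: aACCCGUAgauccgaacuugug
miR-125a-5p: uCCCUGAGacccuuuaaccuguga
miR-125b-5p: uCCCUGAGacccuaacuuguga

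On GRCr8, miR-99b-5p lay at chr1:67350070-67350091 and miR-125a-5p at chr1:67350689-67350712, both on the plus strand. miR-100-5p lay at chr8:50798307-50798328, and the copy of miR-125b-5p from Mir125b-2 lay at chr11:29732588-29732609, again on the plus strand. From miR-100-5p to miR-99b-5p, counted from the 5′ end, the changes were A1C, U11A, A16C and U21C, none of them in the seed. miR-125a-5p and miR-125b-5p were identical over their first 13 bases. Of the mature miRNAs in the RefSeq table, miR-99b-5p and miR-100-5p were the 2 with the seed ACCCGUA, and CCCUGAG was shared by miR-125a-5p, miR-125b-5p and miR-351-5p. The counts list miR-351 under older names that do not give the arm, so it has no value here.

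The genes form 3 clusters with the same order, first a miR-99/100 gene, then a let-7 gene, then a miR-125 gene. Mir99b, Mirlet7e and Mir125a lie on chromosome 1. Mir100, Mirlet7a-2 and Mir125b1 lie on chromosome 8, and Mir99a, Mirlet7c-1 and Mir125b-2 on chromosome 11. The let-7 partners are also near-identical, with the change A19G from let-7a-5p to let-7c-5p and U9G from let-7a-5p to let-7e-5p.

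let-7a-5p: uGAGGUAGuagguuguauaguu
let-7c-5p: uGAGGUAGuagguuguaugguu
let-7e-5p: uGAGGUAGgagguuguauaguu

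miR-125b-5p is encoded at both Mir125b1 and Mir125b-2, whose counts were added. The table gave the Mir125b1 row between 51.6% and 52.7% of the miR-125b-5p reads in the 4 libraries. A mature read from these genes does not tell which one it came from, so this split does not measure either gene.

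The libraries held 6517329 (RC-cells) and 7414467 miRNA reads (GC-cells) and, for the vesicles, 1108821 (RC-MVs) and 982543 (GC-MVs). Levels are given as the percent of all miRNA reads of the library, so a lower share and less RNA per vesicle or per cell cannot be told apart. With 1 library per condition there is no replicate check and no test of a difference. The 95% intervals in square brackets cover counting error only, and PCR copies are not independent molecules. The cartilage miRNAs miR-140 and miR-455 (4 of 4 arms in the table) summed to between 0.526% and 1.00% in the 4 libraries. In each zone 2 of these arms were higher in MVs than in cells (miR-140-3p and miR-455-3p) and 2 were lower (miR-140-5p and miR-455-5p). Markers of other sources were also summed. The sum of the 8 blood markers in the table was 0.0260% in RC-cells and 0.0223% in GC-cells, against 0.104% in RC-MVs and 0.253% in GC-MVs, and that of the 3 liver and serum markers was 0.0284%, 0.0393%, 0.418% and 1.18% in the same order. The blood sums in cells were mostly miR-126a-3p, with 1614 of 1696 reads in RC-cells and 1565 of 1656 in GC-cells. In RC-MVs 7 of the 8 blood markers were past 2-fold upwards from their cells (33.6% of all miRNAs were), while miR-126a-3p was lower (ratio 0.608). Of the 7, miR-144-5p rested on 2 reads against 1 in the cells, with an interval that spans no difference [0.612, 694]. miR-223-3p had 1 read in RC-cells. In GC-MVs miR-126a-3p was 2.97-fold higher, and all 7 blood markers with reads in both libraries were past 2-fold upwards (32.1% of all miRNAs). In MVs the liver and serum sum was set by miR-122-5p. It held 4447 of 4637 reads for the resting zone and 11225 of 11592 for the growth zone. For the cells it held 32 and 34 reads. Most of the cell sums came from miR-192-5p, at 1551 of 1852 and 2504 of 2913 in the same order of zones. The ratios of miR-192-5p and miR-194-5p were 0.682 and 0.219 in RC-MVs and 1.03 and 0.523 in GC-MVs. The 4 muscle markers summed to 0.000368% and 0.000715% in the cells of the resting and growth zones. Their sums were higher in MVs, at 0.00171% and 0.00733%, on at most 72 reads. For the resting zone, miR-133a-3p and miR-133b-3p were at 0 in the cells. There miR-1-3p went the other way, from 6 reads to 0 in the vesicles, with an interval that spans no difference [0, 4.99]. This left miR-206-3p as the only muscle marker with a resting zone ratio, 3.92. Of the 4 neural markers, the 2 with reads in both libraries of a zone were lower in MVs, with sums over the 4 of 0.0467% and 0.0419% in the cells of the resting and growth zones and 0.0161% and 0.0149% in their MVs, and with miR-124-3p at 0 in every library. Leaving the blood and serum markers out of the totals moved no member's log2 ratio by more than 0.0199.

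All 5 members were well covered, with between 307 and 87547 reads in a library. In both kinds of cells miR-125b-5p was the member with the most reads, and in both kinds of MVs it was miR-100-5p. The lead of miR-125b-5p in cells rests on adding its 2 loci. These held 46179 and 41368 reads in RC-cells and 40288 and 36608 in GC-cells, each fewer than miR-100-5p (59395 and 60199). miR-125b-5p made up 1.34% of RC-cells (rank 11 among all names) and 1.04% of GC-cells (rank 10), against 1.03% of RC-MVs (rank 19) and 0.339% of GC-MVs (rank 32). It was thus lower in each MV library than in the cells of its zone, and lowest in GC-MVs. Its paralog miR-125a-5p was the least read member in every library, at 0.201% of RC-cells, 0.0657% of RC-MVs, 0.146% of GC-cells and 0.0312% of GC-MVs. It went from rank 43 to 77 between RC-cells and RC-MVs and from rank 47 to 102 between GC-cells and GC-MVs.

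The miR-99/100 members lay close to each other. miR-100-5p made up 0.911% of RC-cells, 1.49% of RC-MVs, 0.812% of GC-cells and 0.865% of GC-MVs. miR-99b-5p made up 0.675%, 1.36%, 0.567% and 0.766% of the same libraries. Both had their highest share in RC-MVs. miR-99a-5p, at 0.666%, 0.896%, 0.589% and 0.511%, was also highest in RC-MVs but had its lowest share in GC-MVs. In RC-cells miR-99a-5p and miR-99b-5p were nearly equal (43435 and 43964 reads), and in RC-MVs miR-99b-5p had 1.52 reads for each read of miR-99a-5p, a ratio that was 1.499 in GC-MVs and 0.963 in GC-cells. Counts of miR-99a-5p and miR-100-5p, and of the miR-125 pair, may hold reads that belong to the other member, since how the counting treated reads that match several loci is not given in the sources used here.

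**Figure D1:**
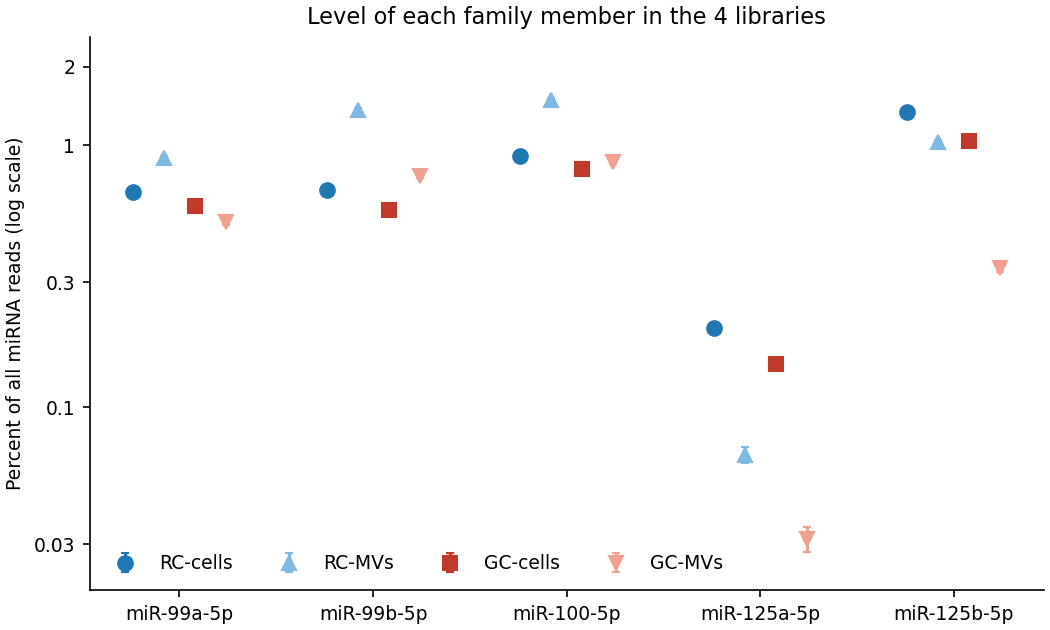
Percent of all miRNA reads (log scale) of the 5 members in the cells and MVs of both zones, with 1 library per point and 95% counting intervals, most of them smaller than the symbol. The miR-99/100 members lie between 0.511% and 1.49%, while miR-125a-5p lies between 0.0312% in GC-MVs and 0.201% in RC-cells.

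The first comparison asks which miRNAs were enriched or depleted in MVs relative to the cells that made them. In the resting zone the families differed in direction. All 3 miR-99/100 members had a larger share in RC-MVs than in their cells and both miR-125 members a smaller one. miR-99b-5p was 2.02-fold higher [1.98, 2.06], miR-100-5p 1.63-fold higher [1.61, 1.66] and miR-99a-5p 1.34-fold higher [1.32, 1.37]. miR-125a-5p was 3.05-fold lower [2.83, 3.30] and miR-125b-5p 1.31-fold lower [1.28, 1.33]. As sums, miR-99/100 went from 2.25% to 3.75% of reads, 1.66-fold higher [1.65, 1.68], and miR-125 from 1.54% to 1.09%, 1.41-fold lower [1.39, 1.44].

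Ratios of these sizes were common among the miRNAs of these libraries. At the threshold of 2-fold, 1 of the 5 members was higher (miR-99b-5p) and 1 was lower (miR-125a-5p), where 33.6% of the 414 miRNAs read at least once in each of the libraries were higher, 30.4% lower and 64.0% past the threshold in either direction. The median log2 ratio was 0.43 over the members and 0.08 over all 414. Counted from the highest ratio, miR-99b-5p stood at rank 140 and miR-125a-5p at rank 328. The call of miR-99b-5p rested on a value just past the threshold. It was lost when the whole interval had to be beyond 2-fold, under both other scalings of the libraries, with totals without the 3 miRNAs miR-143-3p, miR-22-3p and miR-21-5p, and with the mean over equal names.

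In the growth zone the contrast between the families lay mostly with miR-125. miR-125a-5p was 4.67-fold lower in GC-MVs than in GC-cells [4.16, 5.24] and miR-125b-5p 3.06-fold lower [2.95, 3.17]. miR-99b-5p was 1.35-fold higher [1.32, 1.38] and miR-99a-5p was 1.15-fold lower (ratio 0.867 [0.842, 0.893]). miR-100-5p was 1.06-fold higher [1.04, 1.09], a direction that turned under edgeR's TMM and DESeq2's size factors. As sums, miR-125 went from 1.18% of reads in cells to 0.371% in MVs, 3.19-fold lower [3.09, 3.30]. miR-99/100 was at 1.97% in cells and 2.14% in MVs, 1.09-fold higher [1.07, 1.10] by total reads, while TMM gave a ratio of 0.931 and size factors 0.982.

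At 2-fold, 0 of the 5 members were higher in GC-MVs and 2 were lower, the miR-125 pair. Of the 417 miRNAs with reads in both libraries, 32.1% were higher, 25.2% lower and 57.3% either. The median log2 ratio was −0.21 over the members and 0.13 over all 417. From the highest ratio, miR-125b-5p stood at rank 358 and miR-125a-5p at rank 386.

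The ratio of miR-99/100 reads to miR-125 reads within a library does not depend on how libraries are scaled. It was 1.46 in RC-cells [1.45, 1.47], 1.66 in GC-cells [1.65, 1.68], 3.43 in RC-MVs [3.36, 3.50] and 5.78 in GC-MVs [5.58, 5.99]. Both MV libraries were thus above both cell libraries. From cells to MVs it was 2.35-fold higher in the resting zone [2.30, 2.40] and 3.47-fold higher in the growth zone [3.35, 3.60]. These values depended on the most read member of each family. Without miR-100-5p and miR-125b-5p, the ratio of the remaining reads was 5.14-fold higher in RC-MVs and 5.15-fold higher in GC-MVs.

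**Figure D2:**
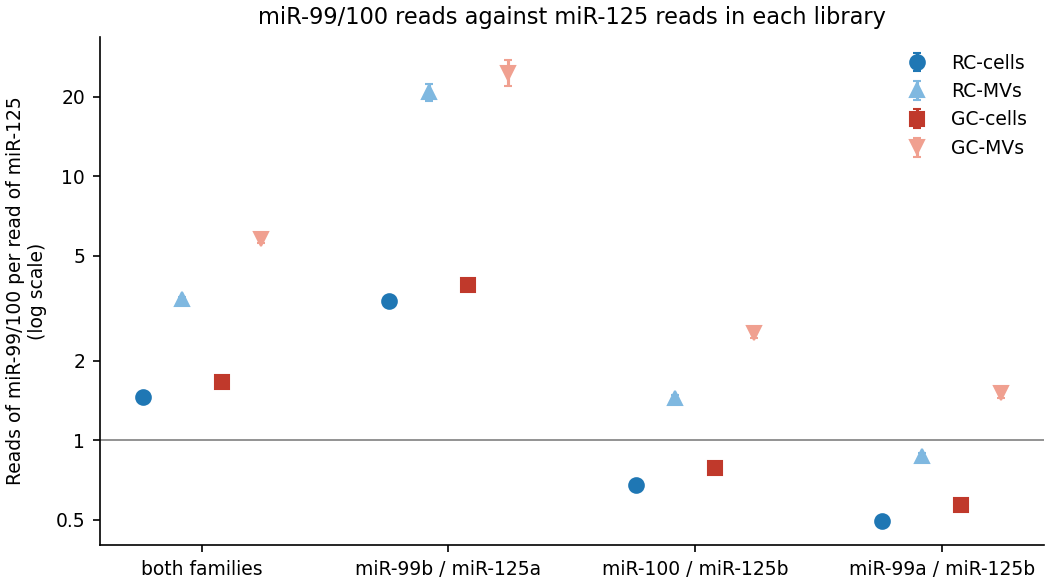
Reads of miR-99/100 per read of miR-125 (log scale) in each of the 4 libraries, for the summed families and for the pairs encoded in 1 cluster, with 95% counting intervals. In every pair each MV library (triangles) lies above the cells of its zone, and the summed ratio runs from 1.46 in RC-cells to 5.78 in GC-MVs.

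The make-up of each family also differed between MVs and cells. Of the miR-125 reads, miR-125a-5p was 13.0% in RC-cells and 12.3% in GC-cells, but 6.003% in RC-MVs and 8.43% in GC-MVs. Within miR-99/100, miR-100-5p kept between 39.7% and 41.3% in the 4 libraries. miR-99b-5p was 29.9% in RC-cells, 28.8% in GC-cells, 36.3% in RC-MVs and 35.8% in GC-MVs, and miR-99a-5p was correspondingly 29.6%, 29.9%, 23.9% and 23.9%. The share of miR-99b-5p was therefore higher in both MV libraries than in both cell libraries.

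Each cluster sets a member of either family beside a let-7 gene, so miRNAs of neighbouring genes can be compared. On chromosome 1 the first gene differed from the other pair. There were 3.36 reads of miR-99b-5p per read of miR-125a-5p in RC-cells and 3.89 in GC-cells, against 20.7 in RC-MVs and 24.5 in GC-MVs, which is 6.17-fold and 6.30-fold higher in MVs. let-7e-5p, from the gene between them, was 2.86-fold lower in RC-MVs and 3.18-fold lower in GC-MVs, near the values of miR-125a-5p. The ratio of let-7e-5p to miR-125a-5p was, in RC-MVs, 1.07-fold higher than in their cells, with an interval that spans no difference [0.956, 1.19], and 1.47-fold higher in GC-MVs than in GC-cells.

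The cluster on chromosome 8 had the same contrast at its ends. miR-100-5p reads per miR-125b-5p read were 0.678 in RC-cells and 0.783 in GC-cells, and 1.45 in RC-MVs and 2.55 in GC-MVs. let-7a-5p was 2.27-fold lower in RC-MVs and 2.46-fold lower in GC-MVs. let-7a-5p and miR-125b-5p are each encoded at 2 loci, so part of their reads may come from a gene outside this cluster.

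In the comparison for chromosome 11, let-7c-5p was nearer to miR-99a-5p than to miR-125b-5p. let-7c-5p is encoded at Mirlet7c-2 too, outside the cluster, and its counts from both loci were added, so part of its reads may come from there. The reads of miR-99a-5p per read of let-7c-5p were 0.496 in RC-cells and 0.617 in GC-cells, against 0.476 in RC-MVs and 0.586 in GC-MVs, so that MVs were 1.04-fold and 1.05-fold lower than the cells of their zone. let-7c-5p was 1.40-fold higher in RC-MVs [1.38, 1.42] and 1.09-fold lower in GC-MVs. The reads of miR-99a-5p per read of miR-125b-5p were 1.76-fold higher in RC-MVs and 2.65-fold higher in GC-MVs. In all 3 clusters, then, the miR-99/100 member was higher relative to the miR-125 member in MVs. The let-7 partner differed in its place. It was near the miR-125 member on chromosome 1 and near the miR-99/100 member for the chromosome 11 set, where let-7c-5p and miR-125b-5p are sums over 2 loci. For chromosome 8, the vesicle ratio of let-7a-5p was below those of miR-100-5p and miR-125b-5p in the resting zone. In the growth zone it lay between them, nearer to miR-125b-5p. let-7a-5p and let-7c-5p are 1 base apart, and reads counted for the wrong one would change these values, which was not tested.

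**Figure D3:**
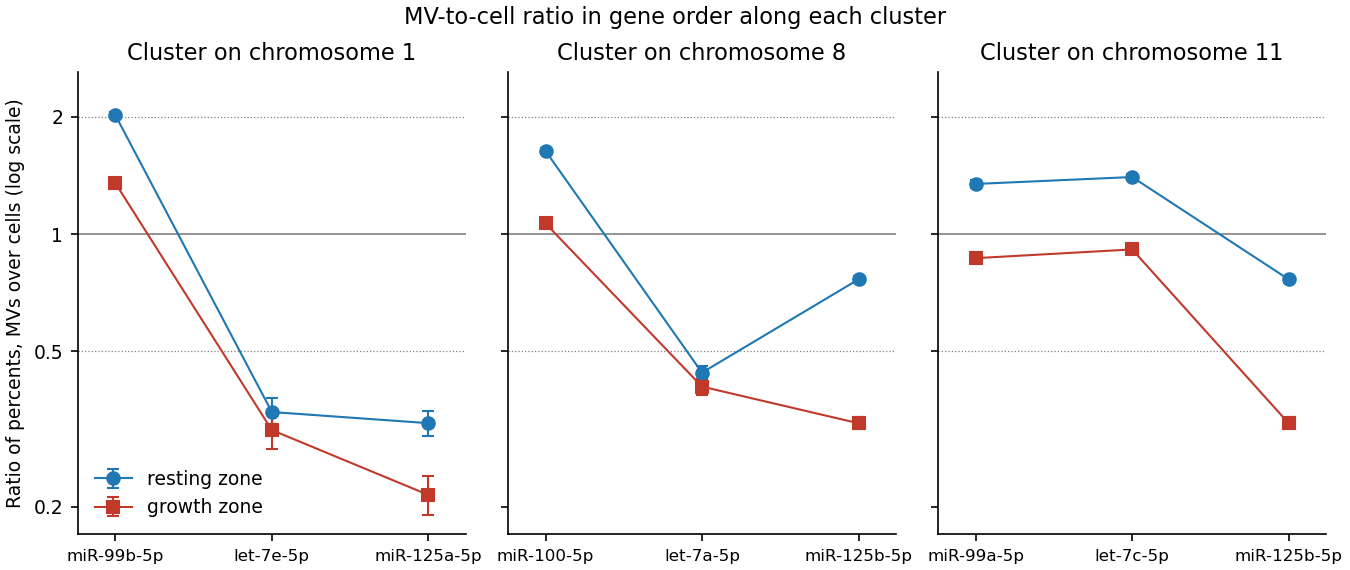
Ratio of the percent in MVs to that in cells (log scale) for the miRNAs of each cluster in gene order, in the resting zone (circles) and the growth zone (squares), with 95% counting intervals and dotted lines at 2-fold. miR-125b-5p is drawn in both clusters that encode it, and the miR-99/100 member lies above the miR-125 member in each panel and zone.

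Among the other let-7 guide strands (let-7b, let-7d, let-7f, let-7g, let-7i and miR-98), 4 of 6 were at least 2-fold lower in RC-MVs (30.4% of all miRNAs were) and 4 in GC-MVs (25.2%), while let-7b-5p was 2.56-fold and 2.13-fold higher. Their sum was 8.94% of RC-cells, 3.67% of RC-MVs, 8.35% of GC-cells and 3.61% of GC-MVs. miR-10a-5p and miR-10b-5p are related in sequence to miR-99/100, and miR-10a-5p and miR-100-5p shared a run of 11 bases. Relative to cells, miR-10a-5p was 1.55-fold lower in RC-MVs and 1.69-fold lower in GC-MVs, while miR-10b-5p had a ratio of 1.05 in RC-MVs, with an interval that spans no difference [0.939, 1.18], and was 1.68-fold higher in GC-MVs.

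The opposite arms of the same hairpins gave a second readout of each gene, which the choice of members did not use. The 3p sequences that were read often enough to compare are shown with their seeds in capitals. None has the seed of a member, so that the arms of a hairpin would pair with different targets.

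miR-99b-3p: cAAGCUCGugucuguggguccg
miR-125a-3p: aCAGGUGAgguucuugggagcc
miR-125b-1-3p: aCGGGUUAggcucuugggagcu
miR-125b-2-3p: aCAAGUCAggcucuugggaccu

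The arms of Mir125a went in opposite directions. The reads of miR-125a-3p numbered 211 and 142 in the cells of the resting and growth zones, against 141 in RC-MVs and 67 in GC-MVs, and its share of all reads was 3.93-fold higher in RC-MVs [3.15, 4.88] and 3.56-fold higher in GC-MVs [2.62, 4.79]. The 5p arm was lower in both. There were 61.9 reads of the 5p arm per read of the 3p arm in RC-cells and 76.1 in GC-cells, against 5.16 in RC-MVs and 4.58 in GC-MVs. This ratio was 12.0-fold lower in RC-MVs [9.57, 15.0] and 16.6-fold lower in GC-MVs [12.2, 22.7]. Such a split was not particular to Mir125a. The cartilage miRNAs had it too, with RC-MV ratios of 2.48 for miR-140-3p against 0.119 for miR-140-5p, and 1.72 for miR-455-3p against 0.377 for miR-455-5p. In GC-MVs these were 1.57 against 0.267 and 1.45 against 0.389.

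For miR-125b, the 3p arms of the separate genes have their own sequences and can be told apart. miR-125b-1-3p (5583 and 1634 reads in the cells and MVs of the resting zone, 4889 and 1259 in those of the growth zone) was 1.72-fold higher in RC-MVs and 1.94-fold higher in GC-MVs. miR-125b-2-3p (1486, 388, 1424 and 151 reads in the same order) was 1.53-fold higher in RC-MVs and 1.25-fold lower in GC-MVs. The reads of miR-125b-1-3p per read of miR-125b-2-3p were 3.76 in RC-cells, 4.21 in RC-MVs and 3.43 in GC-cells, and 8.34 in GC-MVs. With both 3p arms added, the ratio of 5p to 3p reads was 12.4 in RC-cells and 12.2 in GC-cells, and 5.64 in RC-MVs and 2.36 in GC-MVs, 2.20-fold and 5.15-fold lower.

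The arms of Mir99b differed less. miR-99b-3p (1266 and 535 reads in the cells and MVs of the resting zone, 1106 and 326 in those of the growth zone) was 2.48-fold higher in RC-MVs and 2.22-fold higher in GC-MVs, and the 5p arm was higher in both too. The ratio of 5p to 3p reads was 34.7 in RC-cells and 38.0 in GC-cells, and 28.2 in RC-MVs and 23.1 in GC-MVs. The remaining 3p arms were near the limit of detection. miR-100-3p had 60 and 35 reads in the cells of the resting and growth zones and 2 and 3 in their MVs. It was 5.10-fold lower in RC-MVs [1.35, 43.1] and 1.55-fold lower in GC-MVs, the latter with an interval that spans no difference [0.487, 7.86]. miR-99a-3p had 14 and 26 reads in the cells, 1 read in RC-MVs and 0 in GC-MVs, where 3 reads, the number that a count of 0 allows, would be 0.000305% of the library. The interval of its ratio, GC-MVs over GC-cells, ran from 0 to 1.15 and so spans no difference. Summed over 6 arms, the opposite arms made up 0.132% of RC-cells, 0.244% of RC-MVs, 0.103% of GC-cells and 0.184% of GC-MVs, and in the resting zone MVs were past 2-fold upwards for 2 of the 6 and downwards for 2, near the 33.6% and 30.4% of all miRNAs, with the call of miR-99a-3p resting on 1 read. In the growth zone 2 of the 5 arms with reads in both libraries were past 2-fold upwards and 0 downwards, beside 32.1% and 25.2%.

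**Figure D4:**
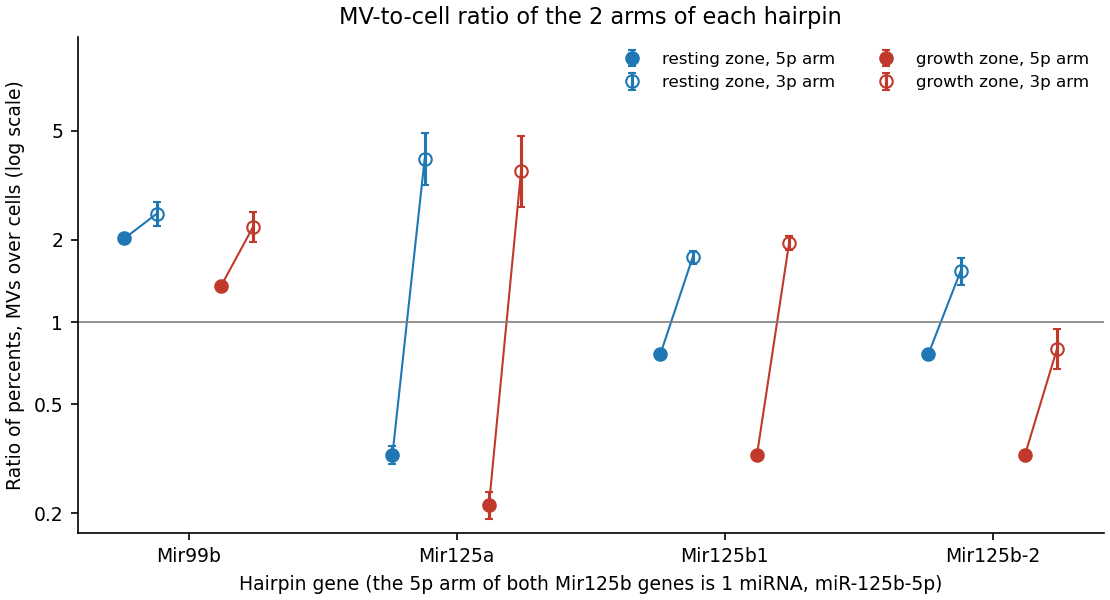
Ratio of the percent in MVs to that in cells (log scale) for the 5p arm (filled) and 3p arm (open) of 4 hairpin genes in the resting zone and the growth zone, with 95% counting intervals. The single value of miR-125b-5p, summed over both Mir125b genes, is drawn for each of them. In each pair the 3p arm lies above the 5p arm, and the arms are farthest apart for Mir125a.

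The next comparison asks whether MVs of the resting and growth zones differ. All 5 members had a larger share in RC-MVs than in GC-MVs, and the miR-125 members differed most. miR-125b-5p was 3.03-fold higher in RC-MVs [2.91, 3.15] and miR-125a-5p 2.10-fold higher [1.84, 2.41]. miR-99b-5p, miR-99a-5p and miR-100-5p were 1.78-fold, 1.75-fold and 1.72-fold higher. These 2 of 5 members at least 2-fold higher, with 0 lower, stand beside 24.7% and 14.6% of 397 miRNAs (39.3% in either direction). The median log2 ratio was 0.83 over the members and 0.15 over all 397. miR-125b-5p stood at rank 41 from the highest ratio. The count of 2 was 1 under TMM and under size factors, and 0 with totals without miR-143-3p, miR-22-3p and miR-21-5p. With those totals the ratios were 1.15 for miR-99b-5p, 1.13 for miR-99a-5p, 1.11 for miR-100-5p, 1.36 for miR-125a-5p and 1.957 for miR-125b-5p.

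Between the cells the members differed little. All 5 had a larger share of total reads in RC-cells than in GC-cells, by 1.38-fold for miR-125a-5p, 1.30-fold for miR-125b-5p, 1.19-fold for miR-99b-5p, 1.13-fold for miR-99a-5p and 1.12-fold for miR-100-5p. For the 3 miR-99/100 members this direction turned under TMM, under size factors and with totals without miR-143-3p, miR-22-3p and miR-21-5p. None was past 2-fold in either direction, where 13.7% of 474 miRNAs were higher and 5.70% lower in RC-cells, together 19.4%. The median log2 ratio was 0.25 over the members and 0.24 over all 474.

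The vesicle-to-cell ratio of the resting zone was then divided by that of the growth zone, which shows how far the zones differed beyond their cells. It was 2.34 for miR-125b-5p [2.25, 2.43], rank 32 from the highest of 384 miRNAs with reads in all 4 libraries. The other members were near each other, with 1.55 for miR-99a-5p, 1.53 for miR-100-5p, 1.53 for miR-125a-5p [1.33, 1.75] and 1.49 for miR-99b-5p. The median over the 384 was 0.981. Of the let-7 partners, let-7c-5p was at 1.53, and let-7a-5p and let-7e-5p were at 1.09 and 1.11. The 3p arms of Mir99b, Mir125a and both Mir125b genes ran from 0.885 for miR-125b-1-3p to 1.92 for miR-125b-2-3p. These values are by total reads and moved with the scaling. For miR-125b-5p, TMM gave 2.57, size factors 2.52, and totals without miR-143-3p, miR-22-3p and miR-21-5p 1.88. The other members ran from 1.64 (miR-99b-5p) to 1.70 (miR-99a-5p) under TMM. With the reduced totals they ran from 1.20 (miR-99b-5p) to 1.25 (miR-99a-5p). The summed blood markers and the summed liver and serum markers were highest in GC-MVs, where the shares of the members were below those in RC-MVs. Leaving these markers out of the totals changed no member's direction, but they hold too few reads to move the totals far. Whether they bear on the zone difference was not tested.

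Across the 4 libraries, the miRNAs with the pattern nearest to a member were found from log2 percents centred on each miRNA's own mean, among 262 miRNAs with at least 10 reads in every library. These are descriptions over 4 libraries. For miR-99a-5p they were miR-30a-3p (distance 0.104 in log2 units), miR-125b-2-3p (0.273) and miR-345-3p (0.274). For miR-99b-5p they were miR-667-5p (0.241), miR-345-5p (0.258) and miR-149-5p (0.260), and for miR-100-5p miR-674-5p (0.205), miR-345-5p (0.234) and miR-30a-3p (0.273). Within miR-99/100, miR-100-5p ranked 4 for both others (0.289 from miR-99a-5p and 0.331 from miR-99b-5p), while miR-99a-5p and miR-99b-5p were 0.615 apart, at ranks 22 and 26. For miR-125a-5p the nearest were miR-543-3p (0.339), let-7e-5p (0.450), which is its cluster neighbour, and miR-361-3p (0.468), and for miR-125b-5p they were miR-331-3p (0.227), miR-380-5p (0.425) and miR-702-3p (0.494). The miR-125 pair was 0.992 apart, at rank 23 for both. The miR-99/100 and miR-125 members of 1 cluster were 2.65 apart for miR-99b-5p and miR-125a-5p, 1.52 for miR-100-5p and miR-125b-5p and 1.25 for miR-99a-5p and miR-125b-5p.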

How the data were processed

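Small RNA from 4 libraries was sequenced on an Illumina HiSeq instrument. Per the labels and the study's methods, reads were mapped by the authors to Rnor_6.0 with Bowtie2 and tabulated them with miARma-Seq, and they deposited whole-number read counts per miRNA locus without normalization. Tool versions, trimming and the treatment of reads matching several loci are not given in the sources used here. No column held a comparison made by the authors.

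From these counts, the 774 loci were summed to 740 names, 28 of which had several loci. Each count was given as a percent of all miRNA reads of its library. Shares have Wilson intervals, ratios of percents exact Clopper-Pearson intervals and ratios of read ratios delta-method intervals, all at 95%. The exact intervals of ratios of percents were tested on simulated data, and the Wilson and delta-method intervals were not. A miRNA counted as different at 2-fold, given at least 1 read in both libraries. With 1 library per group no test was made. Library totals ran from 982543 to 7414467 reads, and 3 reads, the floor used for a count of 0, were between 4.05e-05% and 0.000305% of a library.

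Named were the 5 members, their let-7 cluster partners, the opposite arms, miRNAs sharing a seed, miR-10a-5p and miR-10b-5p, the other let-7 strands as counts, and for each member the 3 nearest patterns. Marker sets for cartilage, blood, liver and serum, muscle and neural tissue were also summed. Of the blood set, miR-486 was not analysed here. Members and lists were chosen with earlier results of these data known. Alternatives were TMM (edgeR 4.0.16) and size factors (DESeq2 1.42.0, R 4.3.3), totals without miR-143-3p, miR-22-3p and miR-21-5p or without blood and serum markers, the mean over equal names, a pseudocount of 0.5, other thresholds, at least 10 reads, and families without their most read member. Applying them to single members and to the zone difference was added after the data were seen. Further tools were scipy 1.17.1, numpy 2.4.6, matplotlib 3.10.9 and pandas 2.3.3 under Python 3.11.15.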

Additional observations from a re-analysis of the deposited data

Results flagged for a closer look

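The vesicle-to-cell ratio lay on opposite sides of 1 in the zones for a member and its cluster partner on chromosome 11. miR-99a-5p had a ratio of 1.34 for the resting zone against 0.867 for the growth zone, and let-7c-5p had 1.40 and 0.913. Each ratio rests on 1 library per side, so the difference between the zones was not tested.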

How the results depend on the processing

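No paired analysis was possible because each group had 1 library and no result came from a test. Other scalings moved the family ratios. With TMM, DESeq2's size factors and totals without miR-143-3p, miR-22-3p and miR-21-5p, in that order, miR-99/100 was at 1.56, 1.62 and 1.44 for RC-MVs over RC-cells, at 0.931, 0.982 and 1.17 for GC-MVs over GC-cells, at 1.52, 1.47 and 1.13 for RC-MVs over GC-MVs, and at 0.907, 0.894 and 0.918 for RC-cells over GC-cells. In the same order miR-125 was at 0.665, 0.689 and 0.612, at 0.268, 0.283 and 0.336, at 2.57, 2.48 and 1.91, and at 1.03, 1.02 and 1.05. Of 20 ratios of single members, 4 changed direction under TMM, 4 under size factors and 3 with the reduced totals. The mean over equal names gave 1.15 for miR-99/100 and 1.32 for miR-125 between the cells, 0.658 for miR-125 in RC-MVs over RC-cells and 0.298 in GC-MVs over GC-cells, and 2.50 for the ratio of miR-99/100 to miR-125 reads in RC-MVs over RC-cells. Without miR-100-5p and miR-125b-5p the latter was 5.14, with 5.15 in GC-MVs over GC-cells, 0.842 in RC-MVs over GC-MVs and 0.844 in RC-cells over GC-cells. Members past 2-fold in RC-MVs over RC-cells went from 2 to 1 when the whole interval had to be past 2-fold, under TMM, under size factors, with the reduced totals and with the mean over equal names. For RC-MVs over GC-MVs the count of 2 became 5 at 1.5-fold, 1 with the whole interval, 1 under TMM, 1 under size factors and 0 with the reduced totals. With at least 10 reads in both libraries, fewer miRNAs were compared, and 184 of 293 (62.8%) in place of 265 were past 2-fold for RC-MVs over RC-cells, 144 of 275 (52.4%) in place of 239 for GC-MVs over GC-cells, 97 of 271 (35.8%) in place of 156 for RC-MVs over GC-MVs and 50 of 379 (13.2%) in place of 92 for RC-cells over GC-cells. The cause of the other shifts was not tested. Relative to total reads, TMM moved the log2 ratios by −0.09, −0.22, −0.20 and −0.34, size factors by −0.04, −0.15, −0.25 and −0.36, and the reduced totals by −0.21, 0.10, −0.63 and −0.32, in the order of comparisons above. A pseudocount of 0.5 and totals without blood and serum markers kept the ratios of families and single members within their counting intervals, and such totals gave the same counts of members past 2-fold in the 4 comparisons. Depth limits the 3p arms of miR-99a and miR-100, with 3 reads or fewer in each MV library.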
